A study of Homo sapiens with 12 samples.

Results

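The replication-dependent histone genes are the short, multicopy genes that supply histone protein while DNA is copied. They were chosen by name: every protein-coding gene of the RefSeq annotation of GRCh38.p14 whose symbol starts with H2AC, H2BC, H3C or H4C, and the linker histone genes H1-1 to H1-6. The rule gave 70 genes among the 19817 protein-coding genes on chromosomes 1 to 22 and X. They were 6 H1, 17 H2A, 19 H2B, 13 H3 and 15 H4 genes. The rule uses no measured value, though it was set with earlier results of these data known.

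The study mapped nucleolus-associated domains, the DNA that co-purifies with nucleoli, in H9, an established line of human embryonic stem cells. The cells were crosslinked and sonicated before nucleoli were pelleted. Untreated naive cells grown in RSeT medium and primed cells grown in mTeSR medium were compared, with 3 nucleolar and 3 whole-cell DNA libraries for each, 12 libraries in all. The authors deposited 1 list of regions per state, which the labels tie to all 6 of its libraries. The regions lie on hg38 in steps of 10 kb and have no height, so a gene is either touched or not, nothing has an error across cultures, and the read depth behind a region is unknown. How the whole-cell libraries entered is not stated. The naive list held 61750 regions and the primed list 29994. Whether the naive cells carry the features of that state was not analysed here, since DNA libraries do not measure markers.

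Nucleosomes hold DNA around a core of the histones H2A, H2B, H3 and H4, and H1 binds the linker between them. In human cells most of the genes lie in a large cluster on the short arm of chromosome 6 and a smaller one on the long arm of chromosome 1. They are transcribed in S phase under NPAT at a nuclear structure called the histone locus body, and their messages end in a stem-loop in place of a poly(A) tail.

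Most histone genes lay in naive regions, and fewer lay in primed ones. A gene counts as touched when any base of its body lies in a region. Naive regions touched 58 of the 70 genes, or 82.9%, and primed regions 48, or 68.6%. The exact 95% binomial intervals were 72.0 to 90.8% and 56.4 to 79.1%, for counting alone. For the naive minus primed difference of 14.3 percentage points the interval was -0.751 to 25.6, which spans no difference. Among all protein-coding genes naive regions touched 76.8% and primed regions 81.8%, and neither difference was tested. Length matters here, because 65 histone genes lie within a single 10 kb bin and long genes meet a region more easily. Of the 2949 protein-coding genes that fit within 1 bin, naive regions touched 45.2% and primed regions 74.1%. The median covered share of the gene body was 100% in both lists for histone genes, against 35.6% in the naive and 75.8% in the primed list for all protein-coding genes.

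Both lists touched 41 of the 70 genes (58.6%), the naive list alone 17 (24.3%), the primed list alone 7 (10.0%) and neither list 5 (7.14%). The same shares over all protein-coding genes were 65.2%, 11.6%, 16.6% and 6.57%. For genes within 1 bin they were 36.4%, 8.82%, 37.6% and 17.1%. The excess of 10 genes on the naive side came from chromosome 6. Without that chromosome, naive regions touched 3 genes fewer than primed ones, among 15. With 10 kb added on either side of each gene the count was 67 (95.7%) in each list, against 89.8% of all protein-coding genes in the naive and 86.7% in the primed list. Neighbours share bins, which makes the intervals too narrow. The 70 gene starts fell in 37 bins, 26 of which held more than 1. By bin, 20 were in both lists, 9 in the naive list alone, 5 in the primed list alone and 3 in neither. The naive minus primed difference by bin was 10.8 percentage points, with an interval of -11.2 to 28.2.

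**Figure D1:**
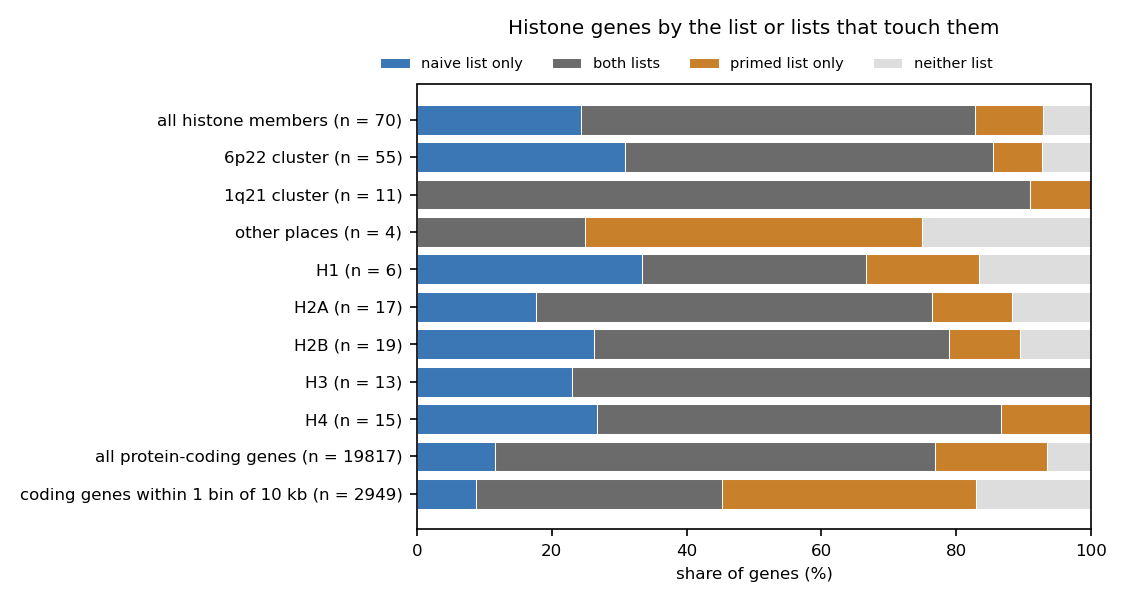
Share of genes (horizontal axis, %) touched by the naive list alone, by both, by the primed list alone or by neither, for the 70 histone genes, their clusters and types, and the protein-coding background. The naive-only part is 24.3% of histone genes and 8.82% of coding genes within 1 bin of 10 kb, and the primed-only part is 10.0% and 37.6%.

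The 6p22 cluster held 55 of the genes between 25726063 and 27893891 of chromosome 6. Naive regions touched 47 of them (85.5%) and primed regions 34 (61.8%), against 75.1% and 70.2% of the 1042 protein-coding genes of that chromosome. By combination, 17 genes were in the naive list alone, 30 in both, 4 in the primed list alone and 4 in neither. Over the protein-coding genes of chromosome 6 these shares were 20.8%, 54.3%, 15.8% and 9.02%, so the naive-only share of 30.9% in the cluster stands beside a chromosome that is itself rich in such genes. The cluster falls into 3 blocks, split at gaps of 300 kb or more. In the first block, 34 genes from H2AC1 to H4C8, naive regions touched 30 and primed regions 23. In the second, 5 genes from H2BC11 to H2AC12, both lists touched all 5. In the third, 16 genes from H2BC13 to H2BC17, naive regions touched 12 and primed regions 6. The third block thus held 8 of the 17 genes found in the naive list alone.

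Within the first block the naive list drew a few long stretches and the primed list many short ones. A naive region of 100 kb (26180001 to 26280000) held 16 histone genes, from H2BC6 to H2BC10. Another of 70 kb (25990001 to 26060000) held 9, from H1-1 to H1-2, and one of 50 kb (26100001 to 26150000) held 4, from H4C3 to H2AC6. Primed regions over the same genes were 10 to 30 kb long until 26240001, where a 100 kb region took in the last 7 genes of the block, H4C6 to H4C8. The 2 outlying genes at the start of the block, H2AC1 and H2BC1, code for testis histones and lay 290 kb from the rest. They were in neither list, 13438 and 12655 bp from the nearest naive region.

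In the first block, a larger share of the bins that hold histone genes than of the bins between them was covered. Naive regions covered 18 of 22 bins with a histone gene (81.8%) and 19 of 35 without (54.3%). Primed regions covered 14 of 22 (63.6%) and 6 of 35 (17.1%). From H1-1 on, where histone genes are dense, the primed figures were 14 of 21 bins and 1 of 7. In the third block naive regions covered 5 of 7 bins with a histone gene and 1 of 3 without, and primed regions 3 of 7 and 2 of 3, the other way round. Along the 28 bins of 6p22 that hold a gene start, the state changed 21 times between successive such bins, which do not always adjoin. No rate of change was computed for other genes.

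**Figure D2:**
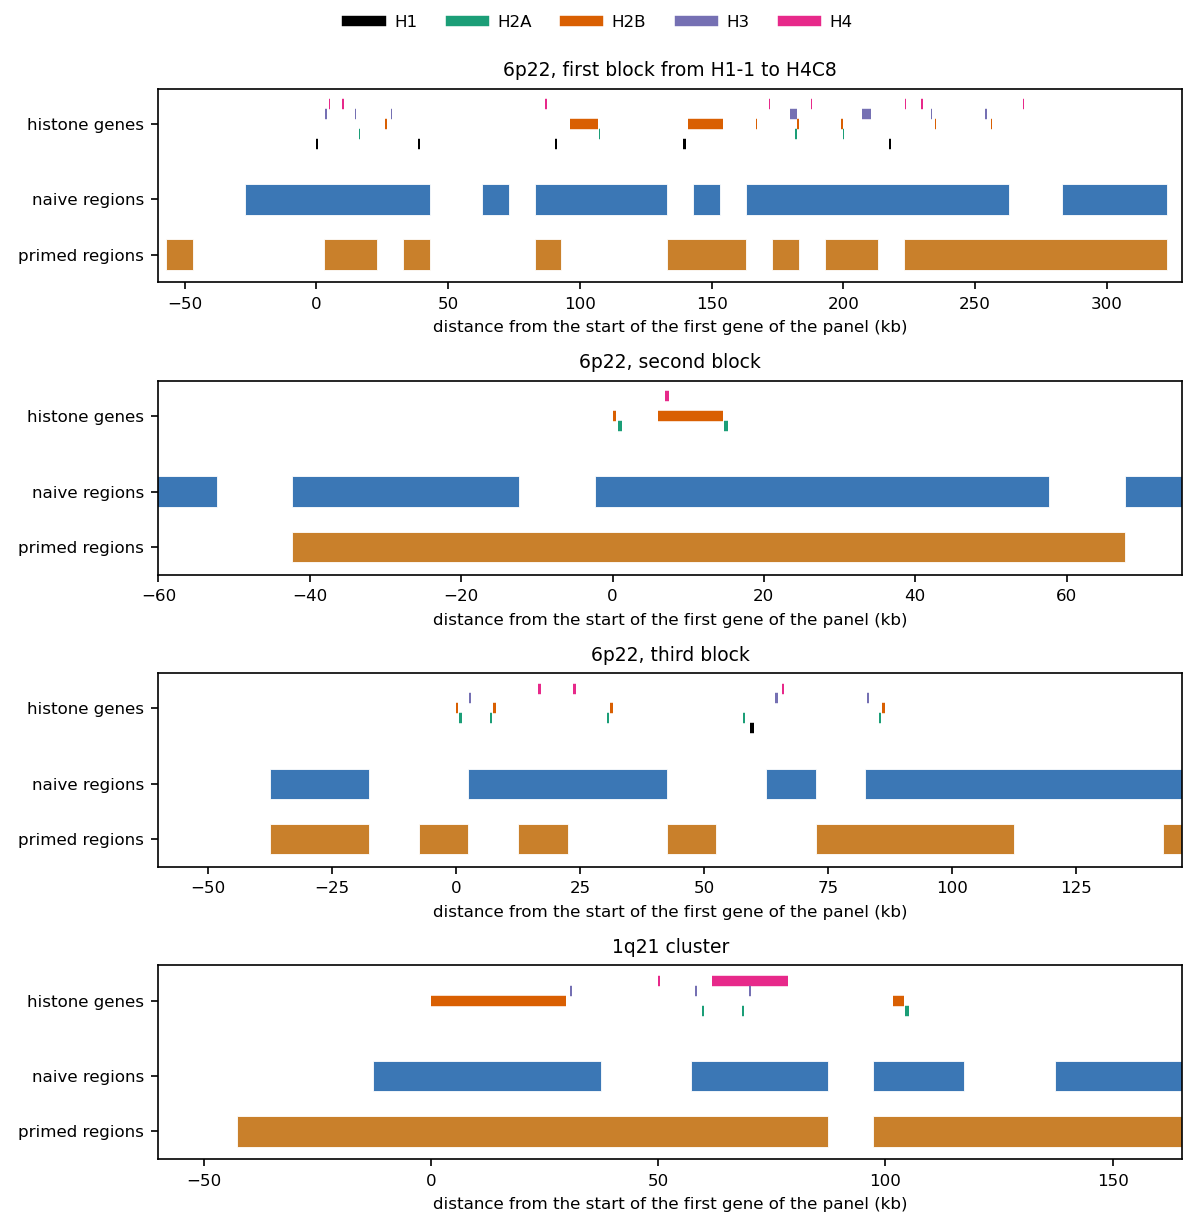
Positions of naive regions, primed regions and histone genes (coloured by type) in 4 panels (the outlying H2AC1 and H2BC1 are not drawn), with the horizontal axis in kb from the start of the first gene of the panel. In the first block a single 100 kb naive region spans 16 genes that the primed list covers in pieces, whereas at 1q21 a 130 kb primed region spans 8 genes.

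At 1q21 the primed regions were the longer ones, as over all touched coding genes (medians of 80 kb primed and 20 kb naive). The 11 genes lie between 149782689 and 149887965 of chromosome 1. Primed regions touched all 11 and naive regions 10, against 79.6% and 75.0% of the 2048 protein-coding genes of chromosome 1. A primed region of 130 kb (149740001 to 149870000) held 8 genes, from H2BC18 to H3C15, and one of 70 kb (149880001 to 149950000) held H2BC21, H2AC20 and H2AC21. The naive list covered the same genes in regions of 50, 30 and 20 kb. The gene it left out was H4C14, which lay 6948 bp from the nearest naive region.

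Outside both clusters lay 4 genes. H2AC25 and H2BC26, a pair at 228457364 to 228458558 on chromosome 1, were in a primed region of 60 kb and not in a naive one, with the nearest naive regions 2127 and 1442 bp away. H4C16 on chromosome 12 (14770720 to 14771131) was in a 40 kb naive and a 20 kb primed region. H2BC12L on chromosome 21 (43565182 to 43565648) was in neither, 54352 bp from the nearest naive and 4352 bp from the nearest primed region. Naive and primed regions touched 76.1% and 84.0% of the protein-coding genes of chromosome 12, and 82.4% and 96.6% of those of chromosome 21.

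The linker histone genes covered every combination. They encode the H1 subtypes that compact nucleosome arrays. H1-2 and H1-6, a testis subtype, were fully covered in both lists. H1-1 and H1-3 were fully covered in the naive list and at 0 in the primed list, with primed regions 2213 and 4211 bp away. H1-4 was the opposite, at 0 in the naive list, 2885 bp from a naive region, and fully covered in a 30 kb primed region. H1-5, in the third block, was in neither, 2412 bp from a naive and 6791 bp from a primed region. So naive regions touched 4 of 6 H1 genes and primed regions 3.

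The H1 genes shared the letters of an upstream element whichever list they were in, though before H1-1 these lay elsewhere and on the other strand. The H1 box, with the letters AAACACA, is a promoter element of linker histone genes. It was found on either strand in the 250 bases before the start of all 6 H1 genes and in 4.96% of 27195 RefSeq windows of that length. The 130 bases before the annotated start of 4 genes, 1 for each combination of lists, are shown 5′ to 3′ from RefSeq (GRCh38.p14), with the H1 box in capitals.
H1-3, chr6:26234988-26235117, minus strand, naive list alone: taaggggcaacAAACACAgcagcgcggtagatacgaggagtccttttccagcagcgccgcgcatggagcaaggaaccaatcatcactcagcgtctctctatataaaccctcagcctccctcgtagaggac
H1-4, chr6:26156199-26156328, plus strand, primed list alone: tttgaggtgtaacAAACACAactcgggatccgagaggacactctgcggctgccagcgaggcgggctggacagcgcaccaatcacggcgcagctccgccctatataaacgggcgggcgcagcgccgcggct
H1-2, chr6:26056471-26056600, minus strand, both lists: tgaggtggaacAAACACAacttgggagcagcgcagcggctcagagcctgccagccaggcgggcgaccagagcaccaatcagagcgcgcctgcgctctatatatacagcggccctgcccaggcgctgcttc
H1-5, chr6:27867589-27867718, minus strand, neither list: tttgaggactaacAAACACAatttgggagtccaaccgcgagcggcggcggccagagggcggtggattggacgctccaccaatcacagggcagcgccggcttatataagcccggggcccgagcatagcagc
All 4 carry the same 7 letters at nearly the same distance, although their bins differ in list.

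H2A and H2B genes, whose products pair as a dimer in the nucleosome, often lie head to head over a shared promoter. Naive regions touched 13 of 17 H2A genes (76.5%) and primed regions 12 (70.6%). For H2B the counts were 15 of 19 (78.9%) and 12 (63.2%). There were 11 H2A and H2B pairs of neighbours on opposite strands with 193 to 247 bp between them. H2BC12 and H2AC12 lay 247 bp apart as well and were in both lists, but no strand was listed for H2AC12. Both genes of each of the 11 pairs lay in 1 bin at their starts and had the same combination of lists, as the grid almost imposes. Of these 11 pairs, 5 were in both lists, 3 in the naive list alone (H2BC4 with H2AC6, H2AC14 with H2BC14, H2AC15 with H2BC15), 2 in the primed list alone (H2BC13 with H2AC13, H2AC25 with H2BC26) and 1 in neither (H2AC1 with H2BC1).

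Further H2A and H2B genes in the naive list alone were H2BC3 and H2BC6, and H2AC16 was in neither. H2BC5 was the only member covered in part: naive regions covered 75.6% of its 13229 bp model and primed regions all of it. Its annotated start lies in a bin of the primed list alone.

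The pairs H2BC13 with H2AC13 and H2AC14 with H2BC14 stand at the start of the third block with H3C10 between them. The first was fully covered in the primed list and at 0 in the naive list, and the second was the reverse. Their upstream sequences are related: 207 of 249 bases (83.1%) matched between H2BC13 and H2BC14, and 205 of 250 (82.0%) between H2AC13 and H2AC14. Both figures compare nearly the same stretches, because the genes of these pairs lie 243 and 244 bp apart. The octamer, with the letters ATGCAAAT on either strand, is bound by the OCT family and marks H2B promoters. It was found before 14 of 18 H2B and 11 of 16 H2A genes and in 1.66% of all windows. The windows of a head to head pair overlap, so the same octamer can be counted for both genes. The octamer found before H2AC14, for example, is that of H2BC14, so the H2A and H2B counts are not independent. The 130 bases before the start of both H2B genes are shown with the octamer in capitals, since they differ in list and in this element.
H2BC14, chr6:27814892-27815021, plus strand, naive list alone: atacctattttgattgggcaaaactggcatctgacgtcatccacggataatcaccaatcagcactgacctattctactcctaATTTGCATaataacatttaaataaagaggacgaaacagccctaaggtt
H2BC13, chr6:27807930-27808059, minus strand, primed list alone: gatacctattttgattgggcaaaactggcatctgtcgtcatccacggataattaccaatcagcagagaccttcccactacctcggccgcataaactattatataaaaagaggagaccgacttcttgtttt
These letters were found before H2BC14 and not in the window of H2BC13. Over all H2B genes with a window, they were found in 4 of 5 of the naive list alone, 9 of 10 of both lists, 0 of 2 of the primed list alone and 1 of 1 of neither.

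Every H3 gene was in naive regions. H3 carries much of the histone code on its tail. Naive regions touched 13 of 13 H3 genes and primed regions 10 (76.9%). The exact 95% interval of the naive share, for counting alone, was 75.3 to 100%. It holds the 76.8% of all protein-coding genes and lies above the 45.2% of those within 1 bin. For every histone type, the intervals hold the 76.8% (naive) and 81.8% (primed) of all protein-coding genes. The naive intervals of H2A (50.1 to 93.2%), H2B (54.4 to 93.9%) and H4 (59.5 to 98.3%) also lie above the 45.2%. That of H1 (22.3 to 95.7%) holds it. The primed intervals of all types hold the 74.1% of genes within 1 bin. Genes that share bins make these intervals too narrow. The 3 in the naive list alone were H3C3, H3C10 and H3C11, all on 6p22. H3C10 started 50 bp beyond the end of a primed region. A CCAAT box (the letters CCAAT) was found in all H1, H2A, H2B and H3 windows, against 3 of 13 H4 windows and 33.0% of all windows. Here too the windows of H2A and H2B pairs overlap. Of the 11 H3 windows, that of H3C4 is the window of H2AC7, because the annotated models share their start, and 10 belong to H3 genes alone.

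H4 genes code for the most conserved core histone. Naive regions touched 13 of 15 (86.7%) and primed regions 11 (73.3%). H4C4, H4C5, H4C12 and H4C13 were in the naive list alone, H4C8 and H4C14 in the primed list alone and the other 9 in both. The H4 promoter element, which the factor HINFP binds, is a longer motif with GGTCCG at its end. Its full core was found in the windows of H4C14 and H4C15 and of no other RefSeq gene with a window. Its last 6 letters, a part chosen after the sequences were seen, were found before 12 of 13 H4 genes and in 9.36% of all windows. Capitals mark GGTCCG in 3 genes of different list combinations.
H4C4, chr6:26189113-26189242, minus strand, naive list alone: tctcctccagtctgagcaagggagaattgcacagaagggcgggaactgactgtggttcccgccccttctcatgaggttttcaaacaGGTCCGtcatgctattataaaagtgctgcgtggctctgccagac
H4C8, chr6:26285535-26285664, minus strand, primed list alone: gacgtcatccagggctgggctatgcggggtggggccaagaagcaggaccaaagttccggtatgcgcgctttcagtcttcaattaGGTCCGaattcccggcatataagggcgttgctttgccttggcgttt
H4C6, chr6:26240263-26240392, plus strand, both lists: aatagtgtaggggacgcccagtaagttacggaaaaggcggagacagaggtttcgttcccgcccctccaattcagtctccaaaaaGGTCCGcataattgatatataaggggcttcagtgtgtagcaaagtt
These 6 letters stood before 4 of 4 H4 genes of the naive list alone, 6 of 7 of both lists and 2 of 2 of the primed list alone.

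Near-identical H4 copies fell on different sides of a call. H4C14 and H4C15, whose starts lie 28.6 kb apart in opposite directions at 1q21, had the same 250 bases before their starts, with the H4 core in capitals.
H4C14, chr1:149832527-149832656, plus strand, primed list alone: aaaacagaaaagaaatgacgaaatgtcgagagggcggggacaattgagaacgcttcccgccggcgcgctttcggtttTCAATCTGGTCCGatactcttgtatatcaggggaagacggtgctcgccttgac
H4C15, chr1:149861241-149861370, minus strand, both lists: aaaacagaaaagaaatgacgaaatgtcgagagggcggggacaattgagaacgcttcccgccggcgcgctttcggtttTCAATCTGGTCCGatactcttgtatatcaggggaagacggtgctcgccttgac
H4C14 was at 0 in the naive list and H4C15 fully covered there. The neighbouring copies H3C14 and H3C15 matched over 246 of 246 bases, and H2AC18 and H2AC19 over 249 of 249, and all 4 were in both lists. A read that lies wholly in a stretch shared by 2 copies cannot be assigned by its sequence, and how such reads were placed is not given in the sources used here. The other close pair, H4C11 and H4C12 in the third block, matched in 245 of 250 bases. Their last 200 bases before the start are shown, with the 5 differing bases in capitals.
H4C11, chr6:27823892-27824091, plus strand, both lists: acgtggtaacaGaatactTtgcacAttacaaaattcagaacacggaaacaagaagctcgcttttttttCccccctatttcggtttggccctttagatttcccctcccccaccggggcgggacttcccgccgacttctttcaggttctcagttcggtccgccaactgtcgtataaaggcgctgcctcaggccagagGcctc
H4C12, chr6:27831561-27831760, minus strand, naive list alone: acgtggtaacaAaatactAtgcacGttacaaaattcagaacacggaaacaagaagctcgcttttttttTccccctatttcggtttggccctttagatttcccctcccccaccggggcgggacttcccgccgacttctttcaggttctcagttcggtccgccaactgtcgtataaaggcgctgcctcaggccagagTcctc
H4C11 was covered by a primed region of a single bin, and H4C12 lay 1173 bp from the nearest primed region.

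The surroundings of the genes, beyond the 10 kb grid, were denser in naive regions than those of other coding genes. Within 50 kb of a histone gene, naive regions covered a median of 70.1% of the sequence (range 0 to 95.1%) and primed regions 59.4% (9.94 to 100%). Over all protein-coding genes the medians were 37.4% and 68.1%. The naive share was above the primed share at 45 of the 70 genes: 29 of 34 in the first block of 6p22 and 16 of 16 in the third, but at none of 5 in the second, 11 at 1q21 and 4 elsewhere. Genes of a block share most of these windows, so the counts describe blocks.

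On chromosome 6 the naive surroundings of histone genes were among the densest. The median over 1042 protein-coding genes of chromosome 6 was 33.9% naive and 36.7% primed, against 71.7% and 49.8% over the 55 genes of 6p22. H1-3 (95.1%) and H3C6 (94.4%) had the highest naive shares of the chromosome, and 15 of its 20 highest genes were histone genes. At 1q21 the medians were 67.6% naive and 90.1% primed, against 34.0% and 58.2% for chromosome 1. Within 250 kb the medians for all 70 genes were 62.2% naive and 56.0% primed, against 37.2% and 66.8% over all protein-coding genes. At that width the third block turned, with medians of 50% naive and 58.0% primed.

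**Figure D3:**
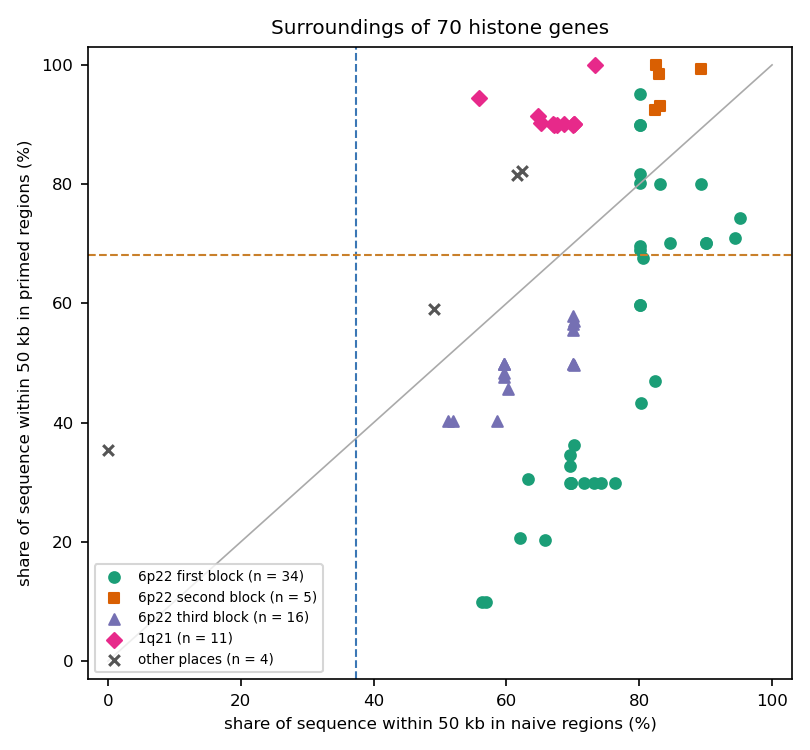
Share of the sequence within 50 kb of each histone gene in naive (horizontal axis, %) and primed regions (vertical axis, %). Points are genes, symbols are blocks, the grey line marks equal shares and the dashed lines mark the medians of all protein-coding genes (37.4% naive and 68.1% primed). All but H2BC12L lie right of the naive median, and 1q21 and the second block of 6p22 lie above the grey line.

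Counted over touched genes, the naive regions that hold histone genes were long for that list. They numbered 12, from 10 to 100 kb, and 39 of the 58 touched genes (67.2%) were in regions of 50 kb or more. Genes that share a region each count its length, and 16 of the 39 lay in a single 100 kb region. Of the protein-coding genes touched by naive regions, 15.3% met a region that long, and of those within 1 bin 25.3%. The median length over touched genes was 60 kb for histone genes and 20 kb for all. The 100 kb region belongs to the 0.722% of naive regions that reach 100 kb. Counted over touched genes, the 15 primed regions with histone genes were not long for their list. The median was 60 kb, against 80 kb for all touched coding genes and 170 kb for those within 1 bin. In regions of 50 kb or more lay 52.1% of touched histone genes, against 62.0% and 76.2%. Counted as regions, those of 130, 110 and 100 kb belong to the 6.64% of primed regions that reach 100 kb. Single-bin primed regions held 9 of the 48 genes.

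**Figure D4:**
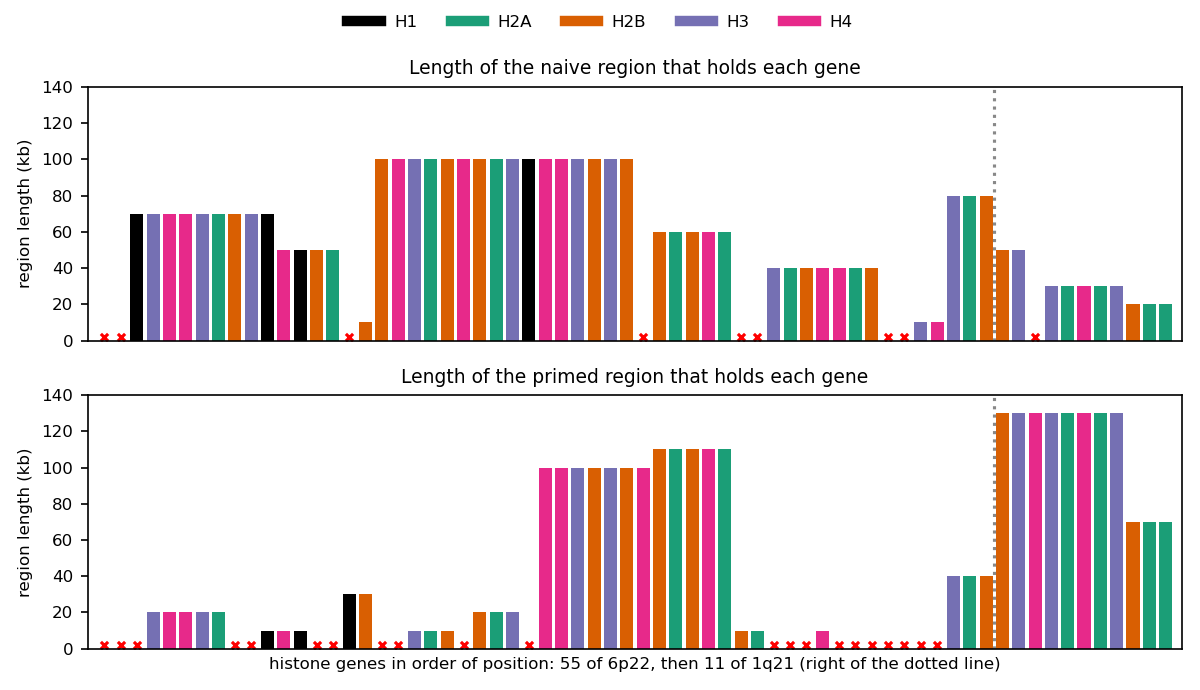
Length (vertical axis, kb) of the naive (top) or primed region (bottom) that holds each of 66 histone genes, in order of position and coloured by type, with red crosses for genes in no region. Naive regions reach 100 kb in the first block of 6p22, while the primed bars there stay at 10 to 30 kb up to the last 7 genes.

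Genes outside the regions were mostly close to them. The 12 genes in no naive region lay at a median of 3.54 kb from one, and 9 of them within 10 kb. The 22 in no primed region lay at a median of 4.43 kb, 19 of them within 10 kb, and the farthest was H2BC1 at 16.8 kb. Other short coding genes were often close too. With 10 kb on either side, the touched share of coding genes within 1 bin rose from 45.2% to 77.9% in the naive list. In the primed list it rose from 74.1% to 86.6%.

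Other coding genes lie mostly between the blocks. From the first to the last histone gene of 6p22 there were 20, of which naive regions touched 15 and primed regions 16, with 3 in the naive list alone and 4 in the primed list alone. The first block held 6 of them, of which naive regions touched all 6 and primed regions 3. The phosphate transporter gene SLC17A1 and its neighbour SLC17A4 were in the naive list alone (73.9% and 100% of the body). So was HFE, the haemochromatosis gene (23.6%), the only other coding gene between H1-1 and H4C8. The other 2 blocks held none. At 1q21 FCGR1A, an Fc receptor gene that overlaps the 29682 bp model of H2BC18, and LOC124904411 were fully covered in both lists.

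Histone genes outside the rule gave other counts. Of 30 listed genes for variant and special histones 27 were matched. Naive regions touched 16 (59.3%, exact 95% interval 38.8 to 77.6%) and primed regions 24 (88.9%, 70.8 to 97.6%), with 14 in both lists, 2 in the naive list alone, 10 in the primed list alone and 1 in neither. Both intervals hold the background of 76.8% and 81.8% of all protein-coding genes. H3-3B, which codes for the replacement histone H3.3, was fully covered in the primed list and at 0 in the naive list, and its partner gene H3-3A was in both (100% naive, 80.2% primed). CENPA, the centromeric H3, had 53.8% in primed regions and none in naive ones. The others of the primed list alone were H1-8, the oocyte linker histone, H2AP, H2AL3, H2BN1, H2BW1, H2BW2, H3-7 and H3Y1. H1-10 and H3Y2 were in the naive list alone and H3-5 in neither. H2AJ, next to H4C16 on chromosome 12, was like it fully covered in both.

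Genes for factors that express and handle histones were close to the background. Of 35, naive regions touched 30 (85.7%) and primed regions 31 (88.6%), and 26 were in both (74.3%), against 76.8%, 81.8% and 65.2% of all protein-coding genes. The median covered shares were 46.8% and 58.0% of the body. In the primed list alone were NPAT, the activator of histone transcription at the histone locus body (4.03% of its body), HINFP, which binds the H4 element (41.8%), the cleavage factors CPSF1 (58.0%) and CPSF4 (54.3%), and the chaperone RBBP4 (25.1%). In the naive list alone were LSM10, a U7 snRNP protein that serves histone message processing (100%), CSTF2T (100%), the histone chaperone ASF1A (100%) and cyclin E2, CCNE2 (59.4%). SLBP, which binds the stem-loop of histone messages, was fully covered in both lists.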

How the data were processed

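Nucleolar and whole-cell DNA was sequenced from 3 naive and 3 primed replicates of H9 cells, as 350 bp fragments read in 150 bp pairs per the labels' protocols. The submitters' processing notes name BWA, SAMtools 1.10 and SICER and the build hg38; for settings, the joining of replicates and read depth the sources used here say nothing. The deposited files hold region positions alone, with no count or score, on a 10 kb grid except for 8 naive and 12 primed regions.

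Overlaps were counted with numpy 2.4.6 and pandas 2.3.3 under Python 3.11.15, checked on simulated data, and drawn with matplotlib 3.10.9. Genes came from RefSeq GRCh38.p14, the assembly of hg38; 679 genes with scaffold coordinates were left out. A gene was touched when any base lay in a region. Blocks were split at gaps of 300 kb. With 1 list per state there is no test, and counts stand beside those of all protein-coding genes. Histone promoter windows (250 bases before the start) were listed for 64 of 70 members; H2BC12L, H4C1, H4C3, H2AC12, H3C11 and H3C12 had none. The grouping of copies by protein sequence, planned, was not run. Members, lists and motifs were chosen with earlier results of these data known. Genes named are those in 1 list or in neither, all H1 genes, all genes outside the clusters, and the ends of blocks; SLBP, H3-3A, H2AJ and the neighbours of the clusters were added after their values were seen. The alternatives were other overlap limits, merged gaps, length limits on regions, 10 kb margins, counting by bin, and leaving out chromosome 6 or the testis genes.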

Additional observations from a re-analysis of the deposited data

How the results depend on the processing

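No paired analysis was possible because each state has a single list that joins its replicates, and no replicate could be left out. The 17 results (share of members touched, for all members, clusters and types, and the naive minus primed difference) were recomputed under up to 9 alternatives each, 101 values in all, of which 65 stayed within the 95% binomial interval of the reported value (exact, for counting alone; genes that share bins make it too narrow). All 40 values with other overlap limits (50% or all of the gene body), with bins counted in place of genes, or without the testis genes stayed there.

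When gaps of up to 50 kb were closed, naive regions touched 98.6% of all members, 100% of 6p22, 100% of 1q21, 100% of H1, 100% of H2A, 94.7% of H2B and 100% of H4, and primed regions touched 95.7% of all members, 96.4% of 6p22, 100% of H1, 94.1% of H2A, 89.5% of H2B, 100% of H3 and 100% of H4. With regions of 50 kb or more alone, naive regions touched 55.7% of all members, 67.3% of 6p22, 18.2% of 1q21, 41.2% of H2A, 69.2% of H3 and 53.3% of H4, and primed regions touched 35.7% of all members, 21.8% of 6p22, 0% of H1, 41.2% of H2A, 36.8% of H2B, 38.5% of H3 and 40% of H4. With regions of 20 kb or more alone, primed regions touched 55.7% of all members and 45.5% of 6p22. With 10 kb on either side of each gene, naive regions touched 95.7% of all members, 96.4% of 6p22 and 100% of 1q21, and primed regions touched 95.7% of all members and 94.5% of 6p22. Without chromosome 6, primed regions touched 93.3% of all members. There the naive minus primed difference turned from 14.3 to -20.0 percentage points. The difference over all members was 0 with 10 kb margins and 2.86 after merging. It was larger with length limits, at 22.9 (interval 7.24 to 33.4) for regions of 20 kb or more. For regions of 50 kb or more it was 20.0 (1.46 to 35.3). Merging and margins fill the gaps between neighbouring regions, and length limits remove the short regions of both lists, by construction. Over all protein-coding genes, regions of 50 kb or more touched 11.8% in the naive and 50.7% in the primed list, and merged regions 88.7% and 85.4%. Depth is unknown, so what it limits cannot be stated.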

Other observations

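Most histone pseudogenes lie in or beside the clusters. Of 15 whose symbols share the stems of the rule, 6 were in both lists, 2 in the naive list alone, 1 in the primed list alone and 6 in neither, among them H2ACP1 on chromosome 13 and H2ACP2 on chromosome 2, where no member lies. H2AC5P and H2AC9P, which lie beside H3C3 and H1-3, were fully covered in the naive list and at 0 in the primed list, as those genes were. H4C10P, beside H2BC13, was the reverse. H2BC16P lay in the gap of both lists that also holds H2AC16 and H1-5, and H2BC2P and H2AC2P, beside the testis genes H2AC1 and H2BC1, were in neither list. The pseudogene H2BC27P lies near H2AC25 and H2BC26 on chromosome 1 and was fully covered in both lists, whereas those genes were in the primed list alone. H3-4, a testis H3 gene 32 kb before that pair, was also fully covered in both.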
